A study of Mus musculus with 12 samples.

Results

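Arginine metabolism was followed through 10 genes: Nos2, Gch1, Arg1, Arg2, Slc7a1, Slc7a2, Ass1, Asl, Odc1 and Oat. They were picked by symbol, all 10 were found among the 15170 genes of the deposited table, and the question put to them was how Nos2 stood against Arg1 in each tumor. The tumors were grown from MC38, a mouse colon adenocarcinoma line labelled wild type, and tumor RNA was sequenced. The mice had received an intravenous injection of BG136, a soluble β-1,3/1,6-glucan (6 libraries), or of its vehicle (6 libraries). The treatment labels name no antibody in either group. The labels state no dose, time, host strain or age, nor that each library came from its own animal, so p-values measure only the spread between these samples.

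Arginine is the common substrate of enzymes that take it in different directions. Nitric oxide synthases turn it into nitric oxide and citrulline, and the inducible form, encoded by Nos2, is made by macrophages that have met interferon-γ and microbial products. Arginases split it into urea and ornithine, which feeds polyamines through Odc1 and glutamate and proline through Oat. In the mouse, Nos2 and Arg1 are the textbook markers of classically and of alternatively activated macrophages, and tumor macrophages and other myeloid cells are known for using up arginine that T cells need.

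Most libraries (10) held between 14828786 and 18125931 recovered reads, and BG136 replicates 7 and 9 held more, 33231037 and 32956232. The reads of that deeper pair differed by less than separate draws of reads from the same RNA would (chi-square of 0.285 per gene over 13819 genes, and at least 7.88 in every other pair of a group). They were therefore not counted as independent samples. The mean of replicates 7 and 9 entered as BG136 replicate 7-9, which left 5 BG136 and 6 vehicle samples. Epithelial markers, which a colon carcinoma line would be looked for by, were low: summed FPKM of 5 markers (Krt8, Krt18, Krt19, Epcam, Cdh1) was 3.13 to 33.2 in BG136 and 13.0 to 29.9 in vehicle tumors. Krt18 was listed at 0 in BG136 replicates 4 and 6, and Krt8 in BG136 replicate 4, where Cdh1 was at 4.41 FPKM. Cdh1 averaged 3.79 FPKM in BG136 and 2.83 FPKM in vehicle tumors, whereas each of the other epithelial markers had the lower mean in BG136 tumors. Members rested on 7 to 10904 reads per library, with Arg2 the lowest at 7 to 35 and every other member at 92 or more.

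The 10 genes spanned a wide range of levels, which FPKM (fragments scaled to transcript length and library size) allows to be compared between genes. Over the 11 samples Arg1 averaged 127 FPKM, above the mean of 96.8% of the genes in the table, and Odc1 averaged 124 FPKM. These leading genes did not differ beyond their spread, since Arg1 was the higher in 4 of 11 tumors. Oat followed at 45.5 FPKM and did not overlap with Odc1 above it or with Slc7a1 (30.5 FPKM) below it. Slc7a1, Ass1 (25.3 FPKM), Nos2 (18.4 FPKM) and Asl (13.8 FPKM) overlapped each with the next in this order. Slc7a2 (5.20 FPKM) lay below Asl in every tumor and above Gch1 (2.49 FPKM) in 10 of 11, and Arg2 was last at 0.860 FPKM.

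**Figure D1:**
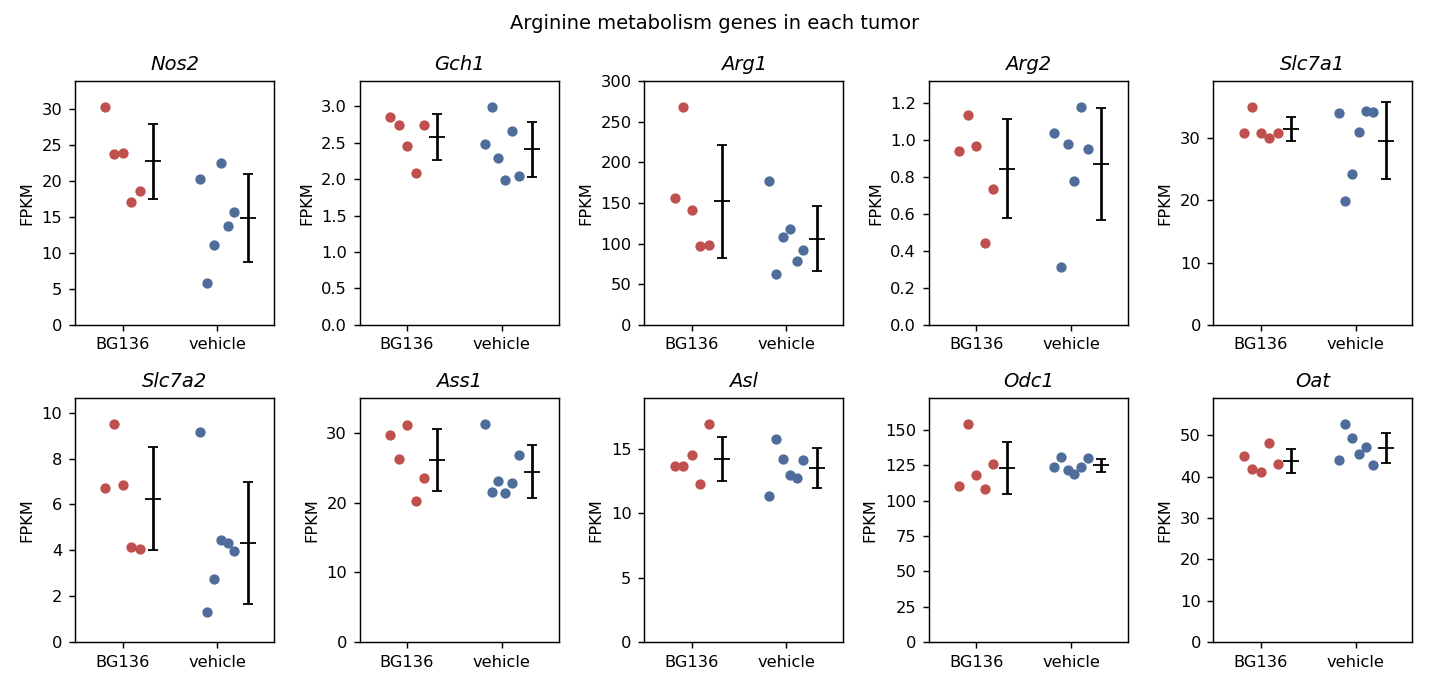
FPKM of each gene in each tumor, with 1 panel per gene, BG136 tumors (red, 5) left of vehicle tumors (blue, 6), and the mean with its SD beside the points. Each axis starts at 0; the groups overlap in every panel, and Nos2 has its lowest value, 5.85 FPKM, in a vehicle tumor.

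Nos2 (gene ID 18126 in the deposited table) had the largest group difference of the members, and it did not pass the test. It was at 30.2, 23.7, 23.9, 17 and 18.6 FPKM in BG136 replicates 1, 2, 4, 6 and 7-9. In vehicle replicates 1, 2, 3, 7, 11 and 12 it was at 20.2, 22.5, 13.7, 15.6, 5.85 and 11.1 FPKM. All 5 BG136 tumors lay above the vehicle median of 14.7 FPKM, but vehicle replicates 1 and 2 lay within the BG136 range, so the groups overlapped. Means were 22.7 ± 5.22 FPKM in BG136 tumors (SD, n = 5) and 14.8 ± 6.09 FPKM in vehicle tumors (SD, n = 6). The log2 difference on the log2(FPKM + 1) scale was 0.66 (95% interval 0.08 to 1.24), with an unadjusted limma p of 0.0283 and an adjusted p of 0.978. Left without vehicle replicates 11 and 12, the tumors of lowest Nos2, the log2 difference was 0.32 (95% interval -0.08 to 0.71). Leaving out the lowest vehicle tumors can only lower the difference, and the interval does not allow for that, so this is no separate check. In bulk tumor RNA, fewer cells of a type and less RNA per cell cannot be told apart, here and for every gene below.

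No member passed: 0 of the 9 tested had an adjusted p under 0.05, and the background was 0% of 11356 genes. limma gave 233 of all genes an unadjusted p under 0.05, and voom on recovered reads called 0 genes, with 315 at an unadjusted p under 0.05. Nos2 was the 1 member with an unadjusted p under 0.05, higher in BG136 tumors, where 0.925% of all genes tested (105) stood in that direction. No member had groups that did not overlap, and 0.229% of all genes tested (26) had. By mean log2 values 7 of the 9 tested members were higher in BG136 tumors and 2 were lower; their median difference was 0.09. Over all genes tested the counts were 6516 higher and 4840 lower, and the median was 0.018.

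**Figure D2:**
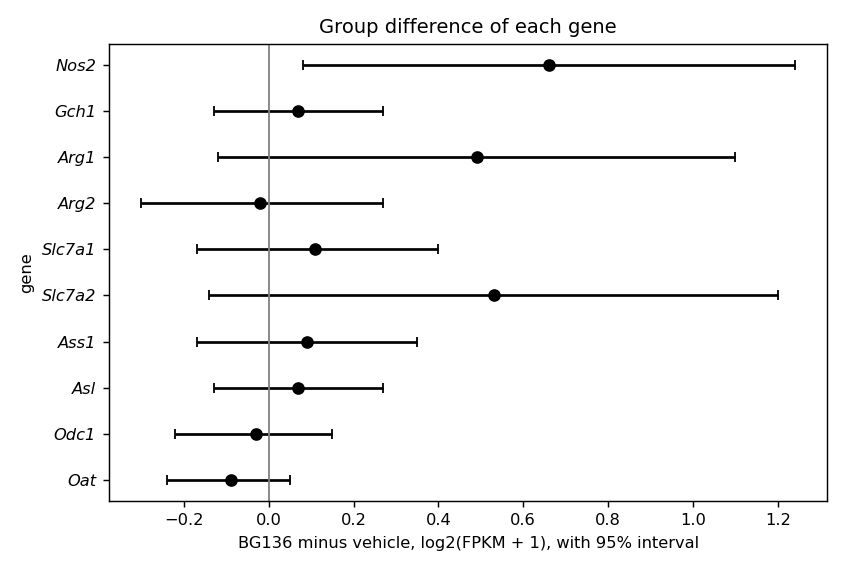
Difference in log2(FPKM + 1) between BG136 and vehicle tumors for each gene (horizontal axis), with its 95% interval from limma; positive means higher in BG136 tumors, and Arg2 comes from the fit without a filter on low values. The interval of Nos2, 0.08 to 1.24, is the 1 that does not cross 0, and no gene passed after adjustment over all genes.

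Gch1 (gene ID 14528) encodes GTP cyclohydrolase 1, the first enzyme in making tetrahydrobiopterin, the cofactor that nitric oxide synthases need. It was at 2.86, 2.75, 2.45, 2.09 and 2.75 FPKM in BG136 replicates 1, 2, 4, 6 and 7-9, against 1.99, 2.38 and 2.99 FPKM as lowest, median and highest of the vehicle tumors. The groups covered much the same range, and the log2 difference was 0.07 (95% interval -0.13 to 0.27; limma adjusted p = 0.978). Vehicle replicate 11, lowest of all tumors for Nos2, was the highest for Gch1.

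Arg1 (gene ID 11846), the cytosolic arginase, was higher on average in BG136 tumors, with wide spread in both groups. It was at 156, 268, 141, 97.1 and 97.7 FPKM in BG136 replicates 1, 2, 4, 6 and 7-9. In vehicle replicates 1, 2, 3, 7, 11 and 12 it was at 177, 118, 78.7, 92.2, 62.6 and 108 FPKM. BG136 replicate 2 stood above every other tumor, while BG136 replicates 6 and 7-9 lay among the vehicle tumors, 3 of which were higher. Means were 152 ± 69.7 FPKM in BG136 tumors (SD, n = 5) and 106 ± 40.1 FPKM in vehicle tumors (SD, n = 6). The log2 difference was 0.49 (95% interval -0.12 to 1.10; limma adjusted p = 0.978), and 0.26 without BG136 replicate 2, whose removal can only lower it.

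Arg2 (gene ID 11847), the mitochondrial arginase, was far below Arg1. It was at 0.941, 1.14, 0.967, 0.444 and 0.736 FPKM in the BG136 tumors in the same order, against 0.313, 0.965 and 1.18 FPKM as lowest, median and highest of the vehicle tumors. It did not pass the filter of 1 FPKM in at least 6 samples. In the fit without that filter its log2 difference was -0.02 (95% interval -0.30 to 0.27; limma adjusted p = 0.993), a scale on which changes of so low a gene are compressed.

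Set against each other within a tumor, Arg1 exceeded Nos2 everywhere. Arg1 was 5.14, 11.3, 5.90, 5.70 and 5.27 times Nos2 in BG136 replicates 1, 2, 4, 6 and 7-9. In vehicle replicates 1, 2, 3, 7, 11 and 12 it was 8.76, 5.23, 5.75, 5.90, 10.7 and 9.75 times Nos2. The ratio was 5.90 or less in 4 BG136 and 3 vehicle tumors, and 8.76 or more in BG136 replicate 2 and vehicle replicates 1, 11 and 12. The log2 ratio of Nos2 to Arg1 averaged -2.67 ± 0.47 in BG136 tumors (SD, n = 5) and -2.88 ± 0.44 in vehicle tumors (SD, n = 6). The difference of 0.22 was smaller than the SD of either group, and no test was made on a score of the chosen genes. It was 0.43 without BG136 replicate 2, 0.11 without vehicle replicate 11, 0.14 without either BG136 replicate 1 or vehicle replicate 12, and -0.01 without vehicle replicates 11 and 12. The tumors of high ratio differed in level: BG136 replicate 2 had the highest Arg1 of all tumors, whereas vehicle replicate 11 had the lowest Nos2 and the lowest Arg1.

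**Figure D3:**
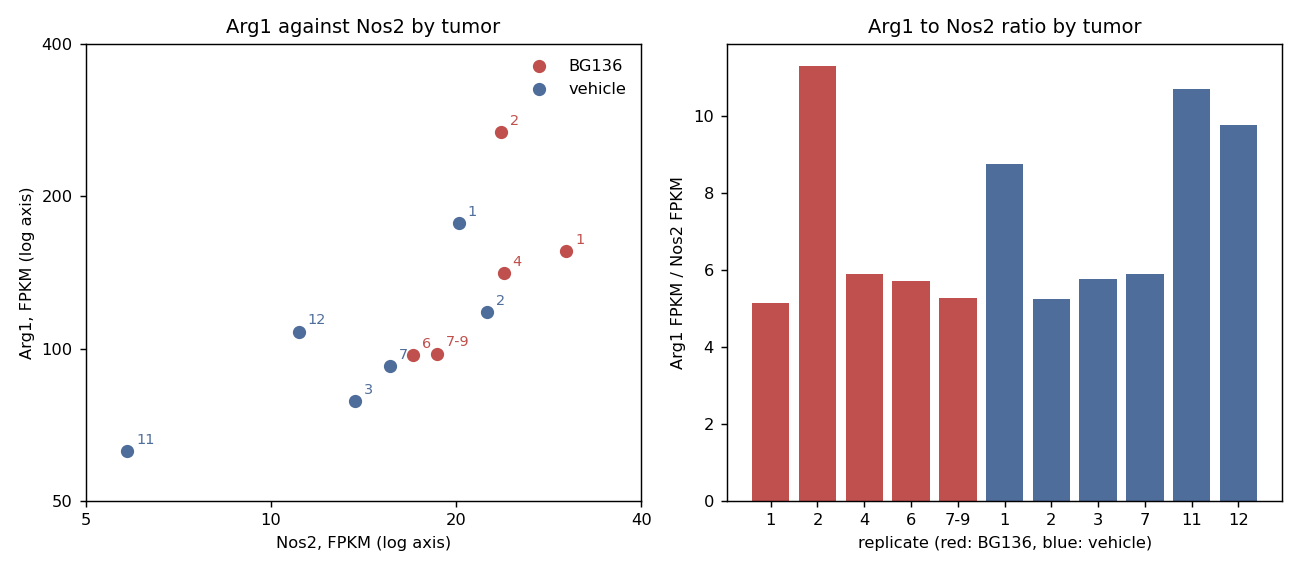
Left, Arg1 FPKM against Nos2 FPKM in each tumor on log axes, with BG136 (red) and vehicle (blue) tumors labelled by replicate; tumors with more Nos2 tended to have more Arg1, from vehicle replicate 11 (5.85 and 62.6 FPKM) upward. Right, Arg1 FPKM divided by Nos2 FPKM in each tumor, from 5.14 in BG136 replicate 1 to 11.3 in BG136 replicate 2, with both groups covering the range.

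Nos2 and Arg1 did not run against each other across tumors: they were high or low together. Over the 11 samples Pearson's r was 0.75 (permutation p = 0.0093; 0.0395 adjusted over 17 relations) and Spearman's rho 0.81 (permutation p = 0.00391; adjusted p = 0.0222). The 17 relations were Nos2 with the 9 other members and Arg1 with the remaining 8, on log2(FPKM + 1). Without the pair of samples farthest from the Nos2 median, vehicle replicates 11 and 12, r was 0.72 (exact permutation p = 0.0276; adjusted p = 0.164) over 9 samples, so the size held and the adjusted call did not. With each group's mean removed r was 0.67 (permutation p = 0.0221; adjusted p = 0.0648), and within the 6 vehicle samples alone it was 0.78 (exact permutation p = 0.0708). The 5 BG136 samples are too few for a correlation of their own. The points are bulk tumors that share library scaling and differ in cell makeup.

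Slc7a2 (gene ID 11988), an arginine transporter of the cationic amino acid family that is induced in activated macrophages, was the member whose pattern came closest to both. It was at 6.73, 9.50, 6.83, 4.13 and 4.07 FPKM in BG136 replicates 1, 2, 4, 6 and 7-9, against 1.29, 4.14 and 9.15 FPKM as lowest, median and highest of the vehicle tumors. Vehicle replicate 1 sat with the high BG136 tumors and vehicle replicate 11 below all others, a 7.39-fold range that was the widest of the members. The log2 difference was 0.53 (95% interval -0.14 to 1.20; limma adjusted p = 0.978), and it was 0.32 without vehicle replicate 11 and 0.17 without vehicle replicates 11 and 12. Those were the tumors of lowest Slc7a2, so leaving them out can only lower the difference. With Nos2 its r was 0.87 (permutation p = 0.00054; adjusted p = 0.00459) and rho 0.83 (permutation p = 0.00269; adjusted p = 0.0222). With Arg1 its r was 0.89 (permutation p = 0.00028; adjusted p = 0.00459) and rho 0.84 (permutation p = 0.00244; adjusted p = 0.0222). Without the samples farthest from the median of the other gene, r was 0.61 with Nos2 (exact permutation p = 0.0816) and 0.81 with Arg1 (exact permutation p = 0.00779; adjusted p = 0.132).

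Slc7a1 (gene ID 11987), the broadly expressed arginine transporter of the same family, was steadier. It was at 30.9, 35.0, 30.9, 30.0 and 30.9 FPKM in the BG136 tumors, against 19.9, 32.5 and 34.4 FPKM as lowest, median and highest of the vehicle tumors. BG136 tumors lay close together except replicate 2, and vehicle replicates 11 (19.9 FPKM) and 12 (24.2 FPKM) lay below all other tumors. The log2 difference was 0.11 (95% interval -0.17 to 0.40; limma adjusted p = 0.978), and its sign turned to -0.08 without vehicle replicates 11 and 12, whose removal can only lower it. Its r with Nos2 of 0.77 (permutation p = 0.0135; adjusted p = 0.046) rested on those samples too, being -0.34 without them (exact permutation p = 0.372), and its rho was 0.29 (permutation p = 0.385). Slc7a1 was 3.68 to 7.60 times Slc7a2 in BG136 tumors and 3.72 to 15.5 times in vehicle tumors.

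**Figure D4:**
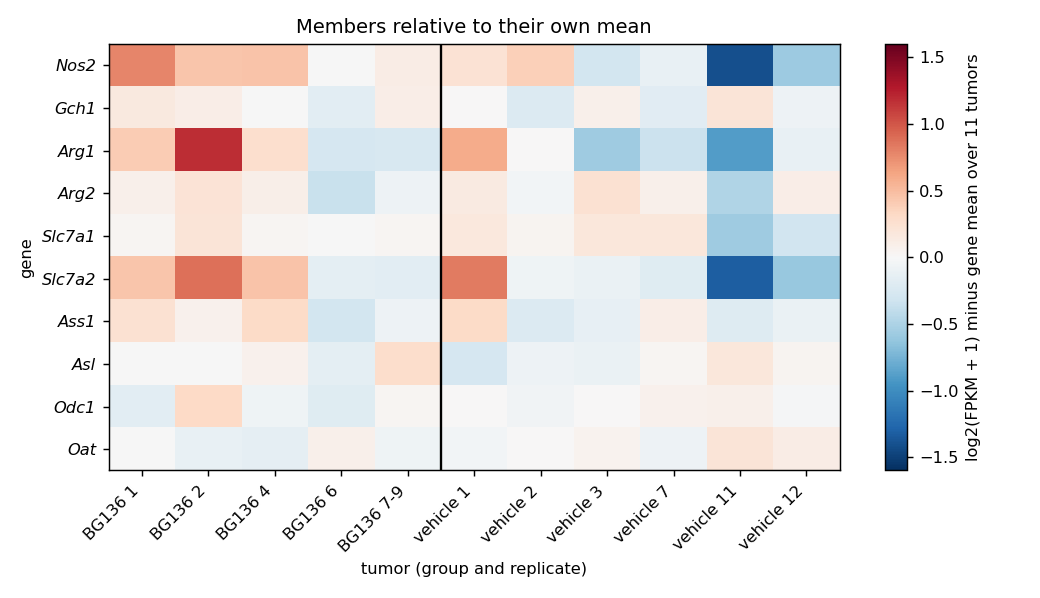
log2(FPKM + 1) of each gene (rows) in each tumor (columns, BG136 left of the line, vehicle right) minus the gene's mean over the 11 samples; red is above and blue below that mean. Nos2, Arg1 and Slc7a2 are above their means in BG136 replicates 1, 2 and 4 and vehicle replicate 1 and have the same lowest tumor, vehicle replicate 11, while Asl, Odc1 and Oat stay near their means.

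Ass1 and Asl encode argininosuccinate synthase and argininosuccinate lyase, which rebuild arginine from citrulline and so let cells that make nitric oxide reuse it. Ass1 (gene ID 11898) was at 29.7, 26.3, 31.2, 20.2 and 23.6 FPKM in the BG136 tumors, against 21.4, 23.0 and 31.3 FPKM as lowest, median and highest of the vehicle tumors. The groups overlapped nearly in full, and the log2 difference was 0.09 (95% interval -0.17 to 0.35; limma adjusted p = 0.978). Asl (gene ID 109900) was at 13.7, 13.7, 14.5, 12.3 and 16.9 FPKM against a vehicle lowest, median and highest of 11.3, 13.6 and 15.8 FPKM. Its log2 difference was 0.07 (95% interval -0.13 to 0.27; limma adjusted p = 0.978). The recycling genes differed in their relation to Nos2, at an r of 0.54 for Ass1 (permutation p = 0.0781) and -0.31 for Asl (permutation p = 0.346); neither passed, and the difference between these correlations was not tested.

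Odc1 and Oat, which encode ornithine decarboxylase and ornithine aminotransferase, take up the ornithine that arginase releases. Odc1 (gene ID 18263) was at 110.2, 154, 118, 108 and 126 FPKM in the BG136 tumors, against 119, 124 and 131 FPKM as lowest, median and highest of the vehicle tumors. The vehicle tumors lay inside the BG136 range, which BG136 replicate 2 set at its upper end, and the log2 difference was -0.03 (95% interval -0.22 to 0.15; limma adjusted p = 0.980), with its sign turning in several alternatives. Oat (gene ID 18242) was at 45.1, 41.8, 41.1, 48.3 and 43.1 FPKM, against a vehicle lowest, median and highest of 42.9, 46.3 and 52.7 FPKM. The groups overlapped, and the BG136 mean was lower by log2 values, at -0.09 (95% interval -0.24 to 0.05; limma adjusted p = 0.978). Oat was the member that ran opposite to Nos2, with an r of -0.79 (permutation p = 0.00376; adjusted p = 0.0213) and a rho of -0.68 (permutation p = 0.0252; adjusted p = 0.107). Vehicle replicates 11 and 12 had the most Oat and the least Nos2, and r was -0.38 without them (exact permutation p = 0.312).

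The members differed in how much they varied among tumors of the same group. In vehicle tumors the coefficient of variation was 61.4% for Slc7a2, 41.0% for Nos2 and 37.8% for Arg1, each above that of more than 98% of the genes tested (99.7%, 98.8% and 98.3%), whose median was 12.3%. Odc1 was at 3.77%, with 2.4% of genes lower. In BG136 tumors, where the median gene was at 10.5%, Arg1 was at 45.9%, Slc7a2 at 36.1% and Nos2 at 23.0%. These lay above 98.6%, 96.5% and 88.6% of the genes tested. Ass1 was in between, at 15.7% in vehicle and 17.1% in BG136 tumors. Arg2, with 7 to 35 reads per library and not among the genes tested, was at 34.7% and 31.5%. Odc1 was at 15.0% in BG136 tumors, above 72.0% of the genes tested, so its contrast with Nos2 was smaller there. Slc7a1 was at 6.17% in BG136 tumors, against 20.8% in vehicle tumors. Without BG136 replicate 2, Arg1 was at 24.4%, Odc1 at 6.96% and Slc7a1 at 1.41% in BG136 tumors. Without vehicle replicate 11, Slc7a2 was at 49.8%, Nos2 at 28.3%, Arg1 at 33.1% and Slc7a1 at 13.8% in vehicle tumors. These left-out values were chosen after seeing the data. Counting error was small beside this, with at least 184 reads behind Slc7a2, 397 behind Nos2 and 1460 behind Arg1 in any library.

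Beyond the members, the genes most like Nos2 over the 11 samples were found by Spearman's rho among 11355 others. They were Gpr35, a G protein-coupled receptor (rho 0.94), Myo1e, a myosin (0.89), Litaf, a gene named for its induction by lipopolysaccharide (0.88), Ano6, a phospholipid scramblase (0.87), and Malt1, a signalling protease that acts with Card9 (0.86). Slc7a2 ranked 18 and Arg1 28 in likeness to Nos2, whereas Oat ranked 10999. Gpr35 was at 3.24 ± 0.320 FPKM in BG136 tumors and 2.67 ± 0.581 FPKM in vehicle tumors (limma adjusted p = 0.978). It was picked for its likeness to Nos2 over both groups, so its group difference is no separate result. Closest to Arg1 were Fcrlb (rho 0.98), the interleukin-2 receptor chain Il2ra (0.97), Cd200 (0.91), the granule proteoglycan Srgn (0.87) and again Litaf (0.87), with Slc7a2 at rank 10 and Nos2 at rank 20. These ranks describe 11 tumors and carry no test.

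The other genes of the pathway were taken from lists, of which 47 of 62 genes were tested, 24 higher and 23 lower in BG136 tumors, and 0 had an adjusted p under 0.05. Among nitric oxide cofactor and partner genes 4 were higher and 4 lower (median log2 difference 0.01). Gchfr, which encodes a regulator of GTP cyclohydrolase 1, was at 2.29 ± 0.561 FPKM in BG136 and 1.66 ± 0.753 FPKM in vehicle tumors, and Pts, an enzyme of tetrahydrobiopterin synthesis, at 10.2 ± 1.37 and 9.24 ± 0.996 FPKM. Nos1, the neuronal synthase, was low, at 0.171 to 0.461 FPKM over all tumors. Nos3, another nitric oxide synthase, was at 2.33 ± 0.518 FPKM in BG136 and 2.42 ± 0.531 FPKM in vehicle tumors. Among 5 further transporters of arginine and ornithine, 3 were higher and 2 lower (median 0.03), with Slc3a2, the heavy chain of several amino acid exchangers, at 35.3 ± 2.63 and 36.6 ± 1.96 FPKM. The urea cycle genes Cps1, Otc and Nags had no entry in the deposited table and so were not analysed here.

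Of 9 polyamine genes 5 were higher and 4 lower (median 0.05). Sms, spermine synthase, was at 8.74 ± 0.991 FPKM in BG136 and 7.62 ± 0.776 FPKM in vehicle tumors (limma adjusted p = 0.978). All 3 genes of the hypusine pathway, which uses spermidine to modify the translation factor encoded by Eif5a, had lower means (median -0.07), and Dohh, deoxyhypusine hydroxylase, was at 32.5 ± 1.24 and 38.0 ± 5.0 FPKM, with an unadjusted limma p of 0.0256. Of 5 proline and glutamate genes 1 was higher and 4 lower (median -0.11), among them Pycr1, which makes proline, at 10.7 ± 1.42 and 11.6 ± 1.26 FPKM. Of 4 creatine and dimethylarginine genes 2 were higher and 2 lower, and Gatm, which begins creatine synthesis from arginine, was at 102 ± 31.2 and 82.2 ± 6.82 FPKM.

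Signals known to induce the main enzymes were measured as well. Of 9 genes of Nos2 induction 6 were higher and 3 lower (median 0.04), with Il1b at 18.6 ± 3.29 FPKM in BG136 and 16.5 ± 3.34 FPKM in vehicle tumors. Of 4 tested genes of Arg1 induction 3 were higher and 1 lower (median 0.11). Il4ra, a chain of the interleukin-4 receptor, was at 24.6 ± 0.941 and 21.5 ± 1.75 FPKM, with an unadjusted limma p of 0.0136 and an adjusted p of 0.978. The Arg1 inducers Il13, Il10 and Csf2 lay under the filter, with no tumor above 1.01 FPKM. Il4, also on that list, had no entry in the deposited table.

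Markers of macrophages, neutrophils and other cells were set beside these values, although bulk RNA does not show which cells made Nos2 and Arg1. The summed FPKM of 5 macrophage markers (Adgre1, Csf1r, Cd68, C1qa and Mertk) was 594 to 962 in BG136 and 619.6 to 797 in vehicle tumors. This sum rests mostly on C1qa, with means of 490.3 FPKM in BG136 and 467 FPKM in vehicle tumors, while Adgre1 ran only from 29.7 to 40.6 FPKM. In the same way fibroblast sums rest mostly on Col3a1 (741 and 735 FPKM) and fat cell sums on Fabp4 (29.9 and 49.6 FPKM). Vehicle replicate 11, lowest for Nos2, Arg1 and Slc7a2, had the second highest macrophage sum (797) and the highest fat cell sum (86.8), and its skeletal muscle sum of 127 was the third highest. BG136 replicate 1, highest for Nos2, had the lowest macrophage sum (594). BG136 replicate 2, highest for Arg1 and Slc7a2, also had the highest macrophage sum (962), the highest epithelial sum (33.2) and the lowest fibroblast sum (867). The sum of the 6 measured of 7 neutrophil markers was 18.9 to 29.4 in BG136 and 12.2 to 35.7 in vehicle tumors, lowest in vehicle replicate 11 (12.2) and highest in vehicle replicate 1 (35.7). No marker of either list was at 0 in every tumor, although Cxcr2 was listed at 0 in at least 1 tumor. T cell marker sums were 24.5 to 88.1 in BG136 and 48.4 to 73.7 in vehicle tumors, and fat cell sums were 21.2 to 49.6 and 54.2 to 86.8, without overlap. Of single genes tested, 0.229% had groups that did not overlap, and the difference in fat cell sums was not tested. Skeletal muscle sums were 1.97 to 156 in BG136 (median 53.1) and 1.54 to 223 in vehicle tumors (median 4.22). The part of cell makeup in the member values was not tested.

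The authors' deposited table gives q-values under 0.05 to 0.0593% of its genes (9 of 15170), and 0 of the 10 members are among them. In the authors' deposited table Nos2 has a log2 fold change of 0.55 (p = 0.063, q = 0.955), Arg1 of 0.40 (q = 0.955) and Slc7a2 of 0.42 (q = 0.956), with base means of 1764 in BG136 and 1205 in vehicle libraries for Nos2. In the authors' deposited table the other members lie between -0.12 (Oat) and 0.11 (Asl) on the log2 scale. The authors' deposited table sets 6 libraries against 6 on scaled counts, another scale than the log2(FPKM + 1) differences above.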

How the data were processed

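Stranded poly(A) libraries of total RNA were sequenced, per the labels' protocols, for 6 BG136 and 6 vehicle libraries. The expression columns hold FPKM computed by the authors, fragments scaled to transcript length and library size; the header does not name this unit, which was read from the values and from Cufflinks in the notes. Base means in the deposited table are a signal from unpaired DESeq2 per the file headers: counts scaled and averaged over libraries. The deposited table also gives a linear fold change (ratio), its log2 value, and a p-value and q-value. The submitters' processing notes name Trimmomatic, HISAT2, Cufflinks, HTSeq, DESeq and build GRCm39. Not given in the sources used here were versions, strand setting and the filter that left 15170 genes. The annotation at hand was of another build, so no coordinates are printed.

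Reads were recovered from the FPKM steps and base means, and 100% lay within 0.1 of a whole number. BG136 replicates 7 and 9 were averaged as 1 sample. The test was limma 3.58.1 (R 4.3.3) with a mean-variance trend on log2(FPKM + 1), a scale that understates changes of low genes. It was two-sided, with Benjamini-Hochberg adjustment over 11356 genes that reached 1 FPKM in 6 or more of 11 samples. Arg2, under that filter, was read from a fit without it. Correlations used 100000 permutations with 11 or 12 samples and all orders with fewer (Python 3.11.15, scipy 1.17.1, numpy 2.4.6). The fit was checked on reads drawn with known changes. It called 94.9% of the genes changed 2-fold, and also 13 unchanged genes. Every gene was drawn with the same spread setting. The check therefore does not show how often changes in genes as variable as Nos2, Arg1 and Slc7a2 would be called.

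Members and lists were chosen with earlier results of these data known. Of the macrophage marker list 1 gene is not reported here and was left out of the sums. Named genes were the 10 members, the 5 genes of highest Spearman rho with Nos2 and with Arg1, and genes from among the 3 of smallest p per list. Those quoted for a list were not always its smallest. Nos1, Nos3, Il4, Il13, Il10, Csf2 and the urea cycle genes were named outside that rule. Alternatives were another pseudocount, no filter, all 12 libraries, quantile normalization, voom on recovered reads, a replicate block, each sample left out, and vehicle replicates 11 and 12 left out.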

Additional observations from a re-analysis of the deposited data

Results flagged for a closer look

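Each group of 5 or 6 samples was screened for a highest or lowest sample that stood apart from the rest of its group, over 10 genes and the log2 ratio of Nos2 to Arg1, 22 groups in all. Chance flags about 1 in 20 such groups, and 2 were flagged, both through BG136 replicate 2. Its Slc7a1 of 35.0 FPKM lay above the other BG136 samples, at 30.0 to 30.9 FPKM, while 4 of 6 vehicle samples were at 31.0 FPKM or more. Its log2 ratio of Nos2 to Arg1 of -3.49 lay below the other BG136 samples, at -2.56 to -2.36. The same tumor had the highest Arg1, Slc7a2 and Odc1 of the 11 and the highest macrophage and T cell marker sums (962 and 88.1 summed FPKM), as well as the highest epithelial sum (33.2) and the lowest fibroblast sum (867). Their part in the flagged values was not tested.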

How the results depend on the processing

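In each of 19 alternatives limma or voom called 0 genes, members included (150 to 474 at an unadjusted p under 0.05, against 233), and Nos2, Arg1, Slc7a2, Ass1, Asl, Gch1 and Oat kept their direction. Nos2 had an unadjusted p under 0.05 in 13 of them; its log2 difference ran from 0.44 (without vehicle replicate 11) to 0.80 with 1 sample left out. The sign turned for Slc7a1 in the 6 samples with shared replicate numbers, with and without the replicate block (-0.03), and without vehicle replicates 11 and 12 (-0.08). Odc1 turned with quantile normalization (0.03) and in those 6 samples (0.05), and ran from -0.12 to 0.01 with 1 sample left out. In those samples Nos2 was at 0.29 with the replicate block and without it, an equality that complete pairs fix in advance. The block can change only the p-values: 2 members had an unadjusted limma p under 0.05 with it and 1 without it. Deviations of same-numbered samples correlated at 0.488, -0.422 and 0.26 for numbers 1, 2 and 7. These mixed values were set against no reference, so whether the numbers pair the samples was not settled.

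The adjusted call for Nos2 with Arg1 was lost with group means removed (r = 0.67) and without the farthest samples or vehicle replicates 11 and 12 (both 0.72). Slc7a2 with Nos2 lost it without those samples (0.61); with Arg1 it lost it without the farthest samples (0.81) and kept it for r without vehicle replicates 11 and 12 (0.93), but not for rho (adjusted permutation p = 0.0766). Without vehicle replicates 11 and 12 r turned for Nos2 with Asl (0.12), Slc7a1 (-0.34) and Gch1 (0.33). Without the samples farthest for Arg1 it turned for Slc7a1 (0.00) and Odc1 (-0.29), and with group means removed for Gch1 (-0.06). The cause was not tested. Depth limits Arg2, at 7 to 35 reads per library.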
